A study of Mus musculus with 18 samples.

Results

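The comparison described here is Torin1 against no Torin1 in wild-type mouse embryonic fibroblasts kept in hypertonic medium. It rests on 6 of the 18 arrays of the series, 3 whose titles read WT 500 and 3 whose titles read WT 500T, with the numbers 1, 2 and 4 on each side. All 18 arrays measured total RNA of fibroblasts of the strain 129sv/ev on Affymetrix mouse arrays, and each value is a deposited RMA signal on the log2 scale, where 1 unit is a 2-fold difference. The wild-type cells are 1 line, labelled NFAT5 wild-type 5.4, and the labels give the treated arrays a pretreatment of 1 h with 100 nM Torin1 before the hypertonic medium. Torin1 in isotonic medium (titles WT 300T against WT 300, 3 arrays each, the same line and dose) is the comparison set beside it. The remaining 6 arrays come from an NFAT5 knock-out line labelled 5.1, in isotonic and in hypertonic medium, and were never given Torin1. The labels name no vehicle for the untreated cells, no unit for the 300 and 500 of the titles and no length of the hypertonic exposure. They also do not say whether the arrays of a group are separate cultures. Every p-value below measures a spread between arrays within groups, pooled over all 18 arrays, the knock-out ones included. That spread may be technical, and 3 arrays per group limit the precision.

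Torin1 blocks the kinase mTOR at its ATP site and so stops both of its complexes, mTORC1 and mTORC2. In growing cells mTORC1 drives protein, nucleotide and lipid synthesis, in part by raising ATF4, a transcription factor that switches on genes for amino acid synthesis, amino acid uptake and tRNA charging. It also keeps TFEB and TFE3, the factors that drive lysosome and autophagy genes, out of the nucleus, while mTORC2 acts through AKT to hold back the FOXO factors. Hypertonic medium draws water out of cells and activates NFAT5, which induces transporters for compatible osmolytes such as inositol and betaine, and heat shock proteins.

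Of 15711 genes tested, 18 differed between the 2 groups (limma, Benjamini-Hochberg adjusted p below 0.05), 9 lower and 9 higher with Torin1, which is 0.115% of the genes, 0.0573% each way. With the array number as a block, 220 genes or 1.40% did, 102 lower (0.649%) and 118 higher (0.751%), and these include all 18. Arrays of the same number deviated together in these 2 groups, with correlations of 0.263, 0.724 and 0.727 for numbers 1, 2 and 4. Deviations from a group mean are not independent, so a shared deviation of number 4 adds to the correlations of numbers 1 and 2. Matched only between these 2 groups, 4 of the 6 compared arrays were closest to the array of their own number. Over all groups the lowest correlation, in number 1, was 0.0945. The pairing by number is therefore uncertain, and both fits are given. Changes were small: 2 genes of the 18, and 11 of the 220, differed by at least 2-fold. The median change over all genes was 0.01 log2. An unadjusted p below 0.05 was found for 1907 genes without the block and 2641 with it (limma). Where no gene changes, a share of about 0.05 of the genes tested falls below that value.

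The count of 18 rested on single arrays and on the spread shared with other groups. It was 0 in a fit of the 12 wild-type arrays alone, and 0 in a fit of the 6 compared arrays alone. Without untreated array 1, 2 or 4 it was 0, 0 or 118, and without Torin1 array 1, 2 or 4 it was 1, 0 or 12. The blocked count fell to 0 when all arrays numbered 1, or all numbered 2, were left out, and was 846 without number 4. The arrays of number 4 stood apart in both groups: they correlated at 0.969 to 0.975 with the arrays of numbers 1 and 2, which correlated with each other at 0.993 to 0.995. Fibroblast markers averaged 10.04 to 10.13 log2 in the untreated and 10.05 to 10.13 in the Torin1 arrays, and the 7 marker lists of other cell types averaged 5.68 to 7.22 over both groups.

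The genes that fell most among the 9 were Slc1a3, Castor2, P4ha3 and Hspa1a, by 0.92 to 1.06 log2. Slc1a3 encodes a transporter that takes glutamate and aspartate into cells. It read 8.96, 8.49 and 8.48 log2 in untreated arrays 1, 2 and 4, and 7.49, 7.52 and 7.73 in the Torin1 arrays. All 3 treated arrays lay below all 3 untreated ones, and the change was -1.06 ± 0.14 log2 (SE, n = 3 per group, limma adjusted p = 0.0154), a 2.09-fold lower level. In isotonic medium the same gene read 6.86, 6.70 and 6.88 without Torin1, so the treated hypertonic arrays stayed above the isotonic level. Castor2 belongs to the CASTOR family of proteins, which restrain mTORC1 through the GATOR complexes. Its signals were 9.66, 9.84 and 10.19 without and 8.81, 8.68 and 9.06 with Torin1, groups that do not overlap, and it changed by -1.05 ± 0.19 log2 (limma adjusted p = 0.0484).

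P4ha3, a catalytic subunit of the prolyl hydroxylase that matures collagen, gave nearly the same difference in each numbered pair: -0.94, -0.94 and -0.93 log2. Its untreated arrays read 11.24, 10.94 and 10.94 and its Torin1 arrays 10.31, 10.00 and 10.01, with an adjusted p of 0.0360 by limma. Hspa1a encodes the stress-inducible Hsp70 chaperone and is a known NFAT5 target. It stood at 10.72, 10.56 and 10.33 log2 without Torin1 and at 9.73, 9.55 and 9.58 with it, and changed by -0.92 ± 0.12 (limma adjusted p = 0.0147). No treated array reached an untreated one. Hspa1b, a neighbour with an almost identical sequence, was not analysed here because no probe set named it alone, so the signal of Hspa1a may hold both.

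The other 5 genes that fell changed by -0.62 to -0.46 log2. They were Gm2a, the lysosomal activator of ganglioside breakdown (-0.61), Phospho2, a phosphatase (-0.61), Ppic, a cyclophilin of the secretory pathway (-0.58), Acta2, the smooth muscle actin of contractile fibroblasts (-0.46), and the gene model 1700084J12Rik (-0.62). Acta2 was among the most even: 13.57, 13.58 and 13.62 against 13.10, 13.10 and 13.20. In that gene the gap between the groups was larger than the whole range within either.

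Among the 9 genes that rose, Gstz1 moved furthest. It encodes the isomerase that takes part in tyrosine breakdown. Gstz1 read 7.43, 7.71 and 7.44 log2 in the untreated arrays and 8.60, 8.56 and 8.28 with Torin1, a rise of 0.95 ± 0.16 (limma adjusted p = 0.0379) with no overlap. Rnf114, a ubiquitin ligase, went from 11.11, 11.07 and 11.28 to 11.84, 11.85 and 11.90, and Rras, a small GTPase of cell adhesion, from 11.81, 11.79 and 11.79 to 12.32, 12.26 and 12.31. The 3 readings of Rras within each group lay within 0.06 log2 of each other. Apba1, an adaptor of vesicle traffic, rose by 0.69, Hspb11, a part of the intraflagellar transport machinery despite its heat shock name, by 0.67, and the membrane scaffold Dlg1 by 0.54. Fbxw4, Ano10 and Zfp330 rose by 0.61, 0.61 and 0.60.

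**Figure D1:**
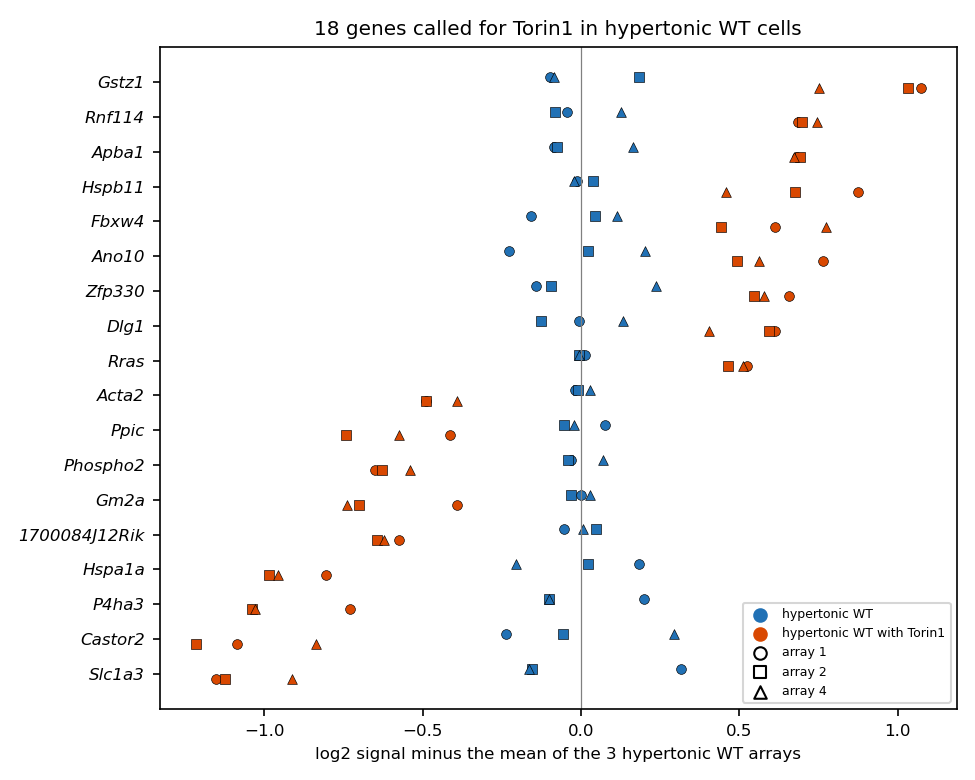
The 18 genes called for Torin1 in hypertonic wild-type cells, 1 row per gene, with each array's log2 signal minus the mean of the 3 untreated hypertonic arrays (blue, untreated; orange, Torin1; circle, square and triangle, arrays 1, 2 and 4). The 3 orange points of a gene lie on 1 side of its 3 blue points in every row, from Slc1a3 at -1.06 to Gstz1 at 0.95 log2 on average.

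Some genes for amino acid supply fell with Torin1 in the fit with the array number as a block. Of 21 tested genes for amino acid synthesis, one-carbon metabolism and other ATF4 targets, 5 fell by that test and 0 rose, against 0.649% of all genes lower. Of 16 amino acid transporters 3 fell and of 18 cytosolic aminoacyl-tRNA synthetases 4 fell, again with 0 that rose. The median changes of these 3 lists were -0.48, -0.33 and -0.30 log2, beside 0.01 over all genes. None of the 55 passed without the block. Their groups did not overlap, with Torin1 lower, for 11, 7 and 11 members, where 7.95% of all genes did so, and 17, 11 and 13 were lower in every numbered pair, where 20.6% of all genes were.

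Mthfd2, the mitochondrial one-carbon enzyme that ATF4 induces, had the largest decrease of the synthesis genes that passed. Its signals were 11.10, 10.94 and 10.56 log2 without and 9.72, 9.76 and 8.91 with Torin1, so both arrays of number 4 were the lowest of their group. The change was -1.41 with an SE of 0.32 in the blocked fit (limma adjusted p = 0.0453) and 0.39 in the fit without the block (adjusted p = 0.139). Psat1, an enzyme of serine synthesis, read 12.49, 12.39 and 11.44 and then 11.26, 11.55 and 9.65. Here the groups overlap, because untreated array 4 lies below treated array 2, and the drop of 1.28 log2 passed in the blocked fit (adjusted p = 0.0354, limma). Without the block it did not (adjusted p = 0.300).

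Asns, which makes asparagine, was measured at 12.83, 12.77 and 12.52 log2 in the untreated arrays and at 12.22, 12.19 and 11.82 in the treated ones, with no overlap. It changed by -0.61, -0.58 and -0.69 in the 3 pairs (limma with the block, adjusted p = 0.0445). Aldh18a1, of proline synthesis, and Shmt2, which passes one-carbon units from serine, changed by -0.95 and -0.92 log2. Gpt2, the mitochondrial alanine aminotransferase, was on none of these lists and fell by 0.93 log2 in the blocked fit (10.69, 10.68 and 10.40 against 9.62, 9.75 and 9.64). Several well-known ATF4 targets did not pass even with the block. Chac1, which breaks down glutathione, differed by -1.55 log2 (adjusted p = 0.0960), Trib3 by -1.31 (0.104) and Atf4 itself by -0.36 (0.225), all by limma with the block.

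Among transporters, Slc7a1 carries arginine and lysine into the cell. It read 10.93, 10.68 and 9.86 log2 without Torin1 and 9.33, 9.70 and 8.74 with it, a change of -1.24 (limma with the block, adjusted p = 0.0196). The groups did not overlap. Slc7a5, the light chain of the large neutral amino acid transporter LAT1, dropped by 0.94, 0.85 and 1.06 log2 in the 3 pairs, but its untreated array 4 (12.12) lay close to treated array 2 (12.07). Slc1a4, a transporter of alanine, serine and cysteine, changed by -1.05. The cystine carrier Slc7a11 differed by -1.28 log2 and did not pass (limma with the block, adjusted p = 0.253).

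The 4 synthetases that fell charge tRNAs with cysteine, tyrosine, isoleucine and asparagine: Cars (-1.12), Yars (-0.94), Iars (-0.71) and Nars (-0.53 log2). Cars read 10.69, 10.67 and 10.29 in the untreated arrays and 9.47, 9.76 and 9.06 in the treated ones, and Yars 11.08, 11.16 and 10.97 against 10.28, 10.28 and 9.84. Neither gene's groups overlap. Qars and Vars, which charge glutamine and valine, differed by 0.17 and 0.21 log2 in the other direction, and neither passed.

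**Figure D2:**
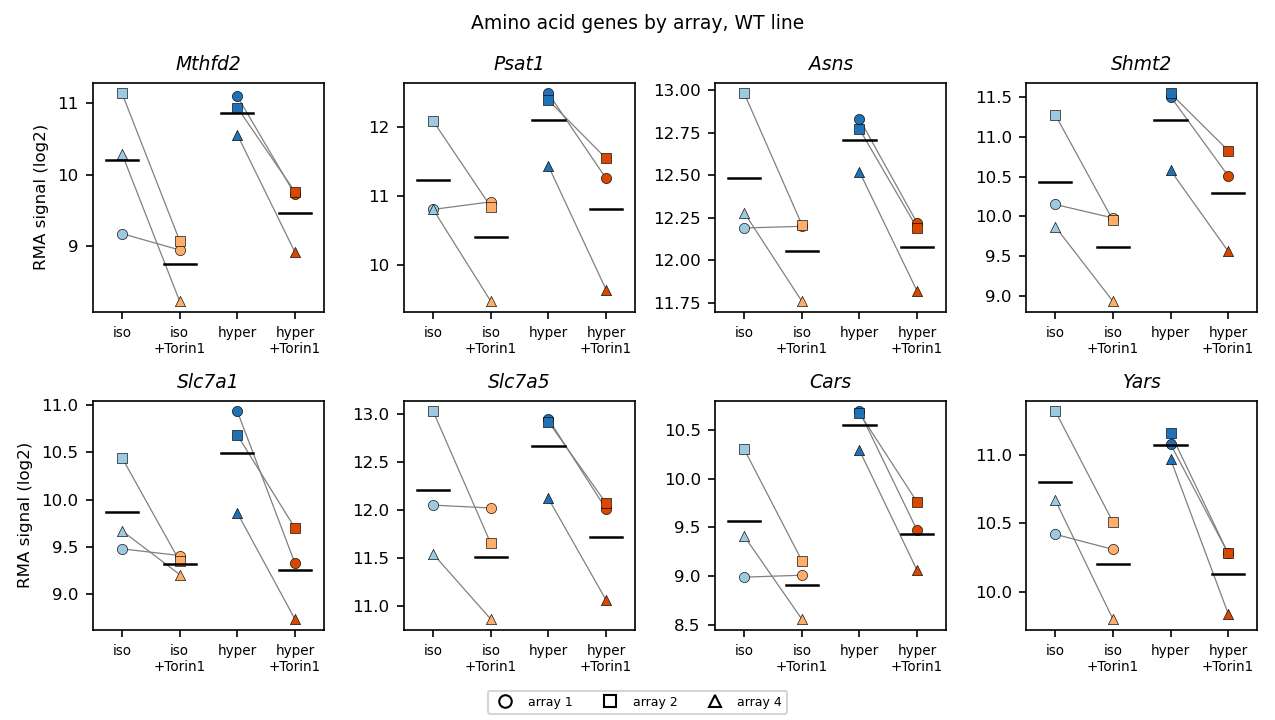
RMA signal (log2) of 8 amino acid genes in each array of the wild-type line, in isotonic and hypertonic medium with and without Torin1 (symbols give the array number, grey lines join arrays of the same number, black bars are means). All 24 hypertonic lines run downward, while isotonic array 1 without Torin1 (light blue circle) lies near the Torin1 arrays, as for Cars with 8.99 and 9.01.

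Some promoters of these genes hold the composite element that ATF4 is known to bind. The 9-base pattern TGATGNAAN was searched on both strands of the 250 bases before each gene's start (RefSeq, GRCm38.p6). Of the 55 genes on the 3 lists 43 had a promoter in the table, and 7 of these (16.3%) held the pattern, against 2.5% of the 12343 tested genes with a promoter. Of the 85 promoters of genes called lower with the block, 1 did (1.18%), that of Asns, and of the 103 of genes called higher, 5 did (4.85%). Of the list genes called lower with the block, 9 had a promoter in the table, and 1 of these held it (11.1%), again Asns. A match is only a match of letters. Nupr1 and Vldlr, list members that hold it and did not pass, are not shown. The windows shown are those of the asparagine gene that fell and of 4 list members that did not pass. They are given so that the element and its surroundings can be compared. Each is 80 bases on the gene's strand, 5′ to 3′, in GRCm38.p6, with the element in capitals.
Asns, chr6:7693210-7693289, minus strand: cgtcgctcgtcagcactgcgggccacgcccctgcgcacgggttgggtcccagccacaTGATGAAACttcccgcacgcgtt
Chac1, chr2:119351013-119351092, plus strand: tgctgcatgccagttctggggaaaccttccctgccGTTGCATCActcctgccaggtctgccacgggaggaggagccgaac
Slc7a11, chr3:50443617-50443696, minus strand: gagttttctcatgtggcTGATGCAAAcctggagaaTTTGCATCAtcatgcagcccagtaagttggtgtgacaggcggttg
Tars, chr15:11399659-11399738, minus strand: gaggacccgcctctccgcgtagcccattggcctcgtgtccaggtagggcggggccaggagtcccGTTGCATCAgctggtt
Gars, chr6:55037921-55038000, plus strand: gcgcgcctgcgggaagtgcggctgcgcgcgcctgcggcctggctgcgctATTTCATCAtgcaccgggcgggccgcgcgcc
In Chac1, Tars and Gars the element reads on the opposite strand, and Slc7a11 holds it 2 times, once in each orientation.

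Lysosome and autophagy genes changed in a few members. Of 38 tested lysosome and TFEB or TFE3 genes, 4 rose in the blocked fit and 0 fell, against 0.751% of all genes higher, and the list's median was 0.07 log2. The Torin1 arrays lay above all untreated ones for 8 of the 38, where 7.68% of all genes did so, and below them for 5, where 7.95% did. Of 29 autophagy genes 2 rose (median 0.05). Gpnmb, a glycoprotein of lysosomes and melanosomes, had the largest rise of the 118: 8.60, 8.99 and 8.37 log2 became 9.85, 10.54 and 9.87. The groups do not overlap and the change was 1.44, 2.71-fold higher (limma with the block, adjusted p = 0.0327, and 0.0777 without it). Rragd, one of the Rag GTPases that bring mTORC1 to the lysosome, went from 7.32, 7.48 and 7.10 to 8.16, 8.39 and 7.87, and Fnip1, the partner of folliculin, from 10.51, 10.32 and 10.47 to 10.86, 10.85 and 10.99. Atp6v0d1, a subunit of the lysosomal proton pump, rose by 0.41 log2.

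Atg14 and Atg7, which act in starting and extending autophagosomes, rose by 0.50 and 0.43 log2. Mcoln1, the lysosomal calcium channel, differed by 0.58, Npc1, the cholesterol exporter, by 0.54 and Sqstm1, the autophagy receptor p62, by 0.28, and none of these 3 passed. Of the lysosomal proteases, Ctsb differed by -0.33, Ctsd by -0.28 and Ctsf by 0.29 log2, none past the test. Ctsh, a cathepsin that is on neither list, fell by 0.84 in the blocked fit, as Gm2a did in both fits. Tfeb and Tfe3 themselves differed by 0.11 and -0.05 log2.

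The E-box CACGTG, the core of the sites TFEB and TFE3 bind, was found before the start of 18 of 103 genes called higher with the block (17.5%) and of 6 of 85 called lower (7.06%). The share over all tested genes with a promoter was 9.28%, and over the lysosome list 39.4%, 13 of 33. Of the lysosome genes that rose, Fnip1 holds it, and Gpnmb, Rragd and Atp6v0d1 do not. Aldh18a1, Iars and Lgmn are among the genes called lower that hold it. Atg7, Fnip1 and Dlg1 (shown for 1 of its 2 starts with the box) are among the genes that rose and hold it. The windows of these last genes are shown with the box in capitals, as above.
Atg7, chr6:114670929-114671008, plus strand: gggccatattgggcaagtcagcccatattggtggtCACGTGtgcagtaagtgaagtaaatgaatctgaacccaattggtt
Fnip1, chr11:54438069-54438148, plus strand: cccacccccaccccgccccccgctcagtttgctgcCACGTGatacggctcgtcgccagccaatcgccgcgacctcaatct
Dlg1, chr16:31663816-31663895, plus strand: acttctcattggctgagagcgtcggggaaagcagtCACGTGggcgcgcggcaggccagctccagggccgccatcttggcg
For 4 further patterns searched the same way, the shares among genes called lower, called higher and all tested were as follows. The NFAT5 core TGGAAAN stood in 15.3%, 19.4% and 17.7%, the FOXO element GTAAACA in 1.18%, 1.94% and 2.79%, and the SREBP element TCACNCCAC in 0, 0.971% and 1.30%. The heat shock element was in 0 called genes' windows and in 0.429% of all.

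Of 32 FOXO factors and targets, 2 rose in the blocked fit, where 0.751% of all genes did, and 0 fell. The median was 0.17 log2. Pik3ip1, an inhibitor of PI3 kinase, rose from 8.88, 9.01 and 9.04 to 9.81, 9.60 and 9.88 log2 with no overlap, and Gadd45b, a stress and growth arrest gene, by 0.56. Fbxo32, the ubiquitin ligase atrogin-1, differed by 0.92, Irs2 by 0.54, Foxo3 by 0.47 and Foxo1 by 0.47, without passing. For 21 of the 32 the change was above 0, beside 8198 of the 15711 genes, and 16 were higher in every numbered pair, where 18.9% of all genes were.

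Of 18 tested genes that restrain mTORC1, 1 passed in either fit, Castor2, where 0.0573% of all genes were called lower without the block and 0.649% with it. The list's median was -0.06 log2, and 6 of the 18 had a change above 0, while a few members that did not pass had large differences. Ddit4 (REDD1), which acts on the TSC complex, read 10.81, 9.87 and 9.25 log2 without and 8.60, 8.95 and 8.31 with Torin1. No array of one group reached the other, but the 3 pairs differed by -2.20, -0.92 and -0.95, and the blocked adjusted p was 0.0705 (limma). Ddit4l (REDD2) stood at 9.41, 9.11 and 9.51 and then at 7.38, 7.73 and 8.64, again without overlap, with pair differences of -2.03, -1.38 and -0.87 (limma with the block, adjusted p = 0.0638). Sesn2, a leucine sensor, differed by -1.21 log2 (adjusted p = 0.0583 by the same fit). Deptor differed by -0.02 and Mtor by 0.20. On the list of mTORC1 and mTORC2 components, 1 gene of 26, Rragd, was called higher with the block, where 0.751% of all genes were, and 0 without it. The median of that list was 0.00.

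Of 17 osmolyte and NFAT5 target genes 1, Hspa1a, passed the test, where 0.0573% of all genes were called lower without the block and 0.649% with it. The list's median was -0.27 log2 against 0.01 over all genes, and 10 of the 17 were lower in all 3 pairs, where 20.6% of all genes were. Slc5a3, the inositol transporter and a leading NFAT5 target, read 11.75, 11.63 and 10.88 without and 10.65, 10.97 and 10.21 with Torin1. Its groups overlap by 1 array, and the change of -0.81 ± 0.29 log2 missed the threshold without and with the block (limma adjusted p = 0.239 and 0.107). Slc6a12, the betaine transporter, differed by -1.82 and -0.73 in pairs 1 and 2 but by 0.13 in pair 4, where the untreated array read 7.00 against 9.39 and 9.04 in the others. Aqp1, a water channel, and Hspa4l, a chaperone of the Hsp110 family, differed by -0.92 and -0.81 log2, and both had untreated array 4 as the lowest of their untreated arrays. Nfat5 itself read 10.77, 10.46 and 10.18 without and 10.48, 10.36 and 10.01 with Torin1, a difference of -0.18 ± 0.16 (limma adjusted p = 0.750).

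Slc5a3 stayed above its isotonic level under Torin1. It was 2.15 log2 higher in hypertonic than in isotonic medium with Torin1 (limma adjusted p = 0.00117) and 2.86 higher without it (0.000103). For Hspa1a the hypertonic rise was 1.23 log2 without Torin1 and 0.40 with it, the latter not past the threshold (limma adjusted p = 0.0718). These 2 rises do not share arrays, and the difference between them is that of Torin1's effect in the 2 media, which passed for no gene.

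Of 21 cytosolic heat shock genes 2 fell in the blocked fit, Hspa1a and the HSP90 partner Chordc1 (-0.62), where 0.649% of all genes did. The median was -0.23 log2, and 18 of the 21 had a change below 0, beside 7513 of the 15711 genes. Hsph1 and Dnaja1 differed by -0.36 and -0.51 and Hspa8, the constitutive Hsc70, by 0.14, none of them past the test. Against the same 0.649%, 1 of 23 endoplasmic reticulum genes fell, the disulfide isomerase Pdia3 (-0.42), with a median of -0.19. Of 19 p53 targets 1 fell, Ei24 (-0.57), and the median was -0.33, while Mdm2 differed by -0.33 and Ddit4l, on this list too, by -1.43.

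**Figure D3:**
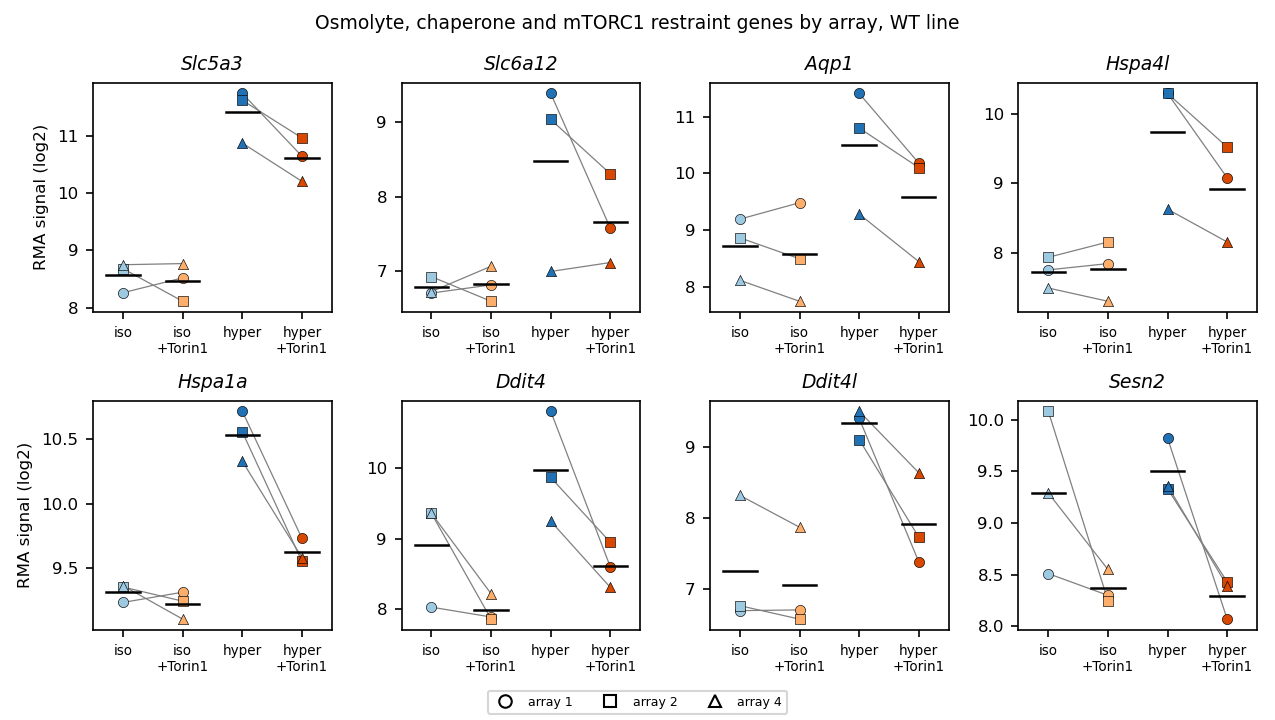
RMA signal (log2) of 8 osmolyte, chaperone and mTORC1 restraint genes in each array of the wild-type line, in isotonic and hypertonic medium with and without Torin1 (symbols give the array number, grey lines join arrays of the same number, black bars are means). Hspa1a is the gene shown that passed the test, with hypertonic means of 10.54 and 9.62, and in Slc6a12 array 4 goes from 7.00 to 7.12, against the fall in arrays 1 and 2.

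Other lists held few called genes, and their counts stand beside the same 0.649% lower and 0.751% higher over all genes. Of 30 ribosome biogenesis genes 2 fell in the blocked fit, the snoRNP protein Dkc1 (-0.74) and Rrp9 (-0.60), and the median was -0.14 log2. The 25 cytosolic ribosomal proteins had none called and a median of 0.01. Among 21 translation factors 2 rose, Eef2k (0.65), the kinase that slows elongation, and Eif3e (0.42). Of 27 HIF-1 and glycolysis genes the phosphoglycerate mutase Pgam1 and Hif1a fell, by 0.57 and 0.44 log2, and of 37 collagen and matrix genes P4ha3 and Pcolce, an enhancer of procollagen processing, did so. The 20 sterol synthesis genes, targets of SREBP2, had a median of -0.06 and none called. Of 33 DNA replication genes, 28 proteasome subunits and 22 genes of nucleotide synthesis none passed either, with medians of -0.16, -0.14 and -0.10, and the same held for 26 mitosis genes (0.03) and 13 histone genes (-0.10 log2).

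Outside the lists described so far, Mfsd2a, which imports lysophospholipids, had the largest blocked fall: 8.71, 9.07 and 7.95 log2 against 7.18, 7.77 and 6.51 (-1.42, limma adjusted p = 0.0174). The pairs of this gene differed by -1.53, -1.30 and -1.44, although array 4 was low in both groups. Ccdc3, a secreted protein, and Bpgm, which makes 2,3-bisphosphoglycerate, changed by -1.02 and -0.97. On the other side Ifrd1 rose by 0.94 with the smallest blocked adjusted p of the genes named here (0.00456 by limma), from 9.80, 9.70 and 9.36 to 10.92, 10.69 and 10.07. Ahnak2 rose by 1.02, the growth factor Pdgfb by 0.87, its receptor Pdgfra by 0.82, the chemokine Cxcl12 by 0.72, the clock-linked nuclear receptor Rora by 0.84 (1 of 17 clock genes called) and the mitophagy kinase Pink1 by 0.74. Cpeb1, Zc3h6, Nrg1 and Hscb rose by 0.79, 0.78, 0.78 and 0.77 log2.

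**Figure D4:**
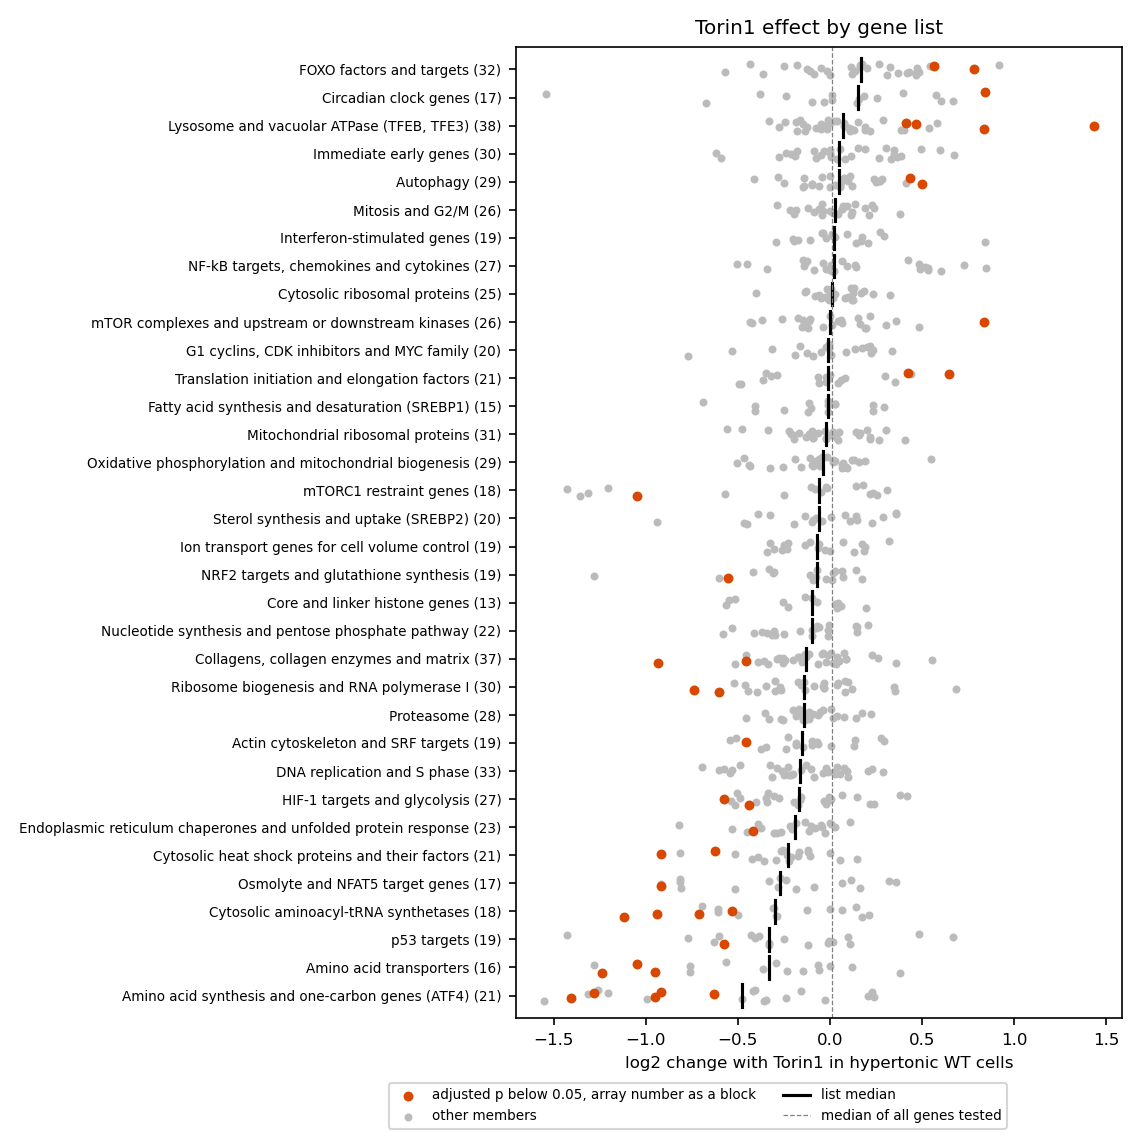
Change with Torin1 in hypertonic wild-type cells (log2, horizontal) for the tested members of each gene list, with the number of members in brackets (orange, adjusted p below 0.05 with the array number as a block; grey, other members; black bar, list median; dashed line, median of all genes). The 3 amino acid lists have medians of -0.48, -0.33 and -0.30, and the FOXO list has the highest at 0.17.

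In isotonic medium Torin1 changed no gene past the threshold, without or with the block. An unadjusted p below 0.05 was found for 470 and 788 genes (limma). The first count is below the share of 0.05 that falls there where no gene changes, and the second is about equal to it. Without isotonic wild-type array 1, 25 genes passed (3 higher, 22 lower), and 295 with the block as well. Pair 1, which holds that array, lay apart in several lists. Over the amino acid synthesis list the median isotonic change was -0.01 in pair 1, -1.06 in pair 2 and -0.52 in pair 4. The hypertonic pairs of that list gave -0.61, -0.46 and -0.48. Isotonic medians were 0.02, -0.44 and -0.47 for endoplasmic reticulum genes and 0.13, -0.27 and -0.88 for DNA replication. Cytosolic ribosomal proteins showed no such gap, with -0.00, 0.03 and -0.07. Mthfd2 read 9.17, 11.14 and 10.29 log2 in the untreated isotonic arrays, so array 1 was near the 8.94, 9.07 and 8.22 of the treated ones.

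The 2 Torin1 comparisons share no array. Of the 18 genes called in hypertonic medium all 18 had the same sign in isotonic medium, and of the 220 called with the block 206 did (93.6%), where 66.2% of all genes did. The isotonic change was the smaller one for 18 of 18 and for 219 of 220, which is a description, since the genes were chosen for their hypertonic change. Isotonic pair 1 also lay near 0 for the genes called with the block. The 102 lower ones had isotonic medians of -0.00, -0.31 and -0.31 log2 in pairs 1, 2 and 4, and the 118 higher ones 0.03, 0.28 and 0.18. Over the 15711 genes the changes correlated with r = 0.554 and rho = 0.483; genes are not independent replicates, and arrays of both comparisons carry the same numbers. The sterol genes had a median of -0.06 in hypertonic and -0.47 log2 in isotonic medium. The isotonic pairs gave 0.06, -0.57 and -0.82, so pair 1 again read otherwise.

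The difference between the 2 effects was tested directly and passed for no gene, without or with the block. An unadjusted p below 0.05 was found for 317 and 555 genes (limma), both below the share of 0.05 that falls there where no gene differs. Hspa1a changed by -0.92 in hypertonic and -0.09 in isotonic medium, a difference of -0.82 ± 0.17 log2. For Slc1a3 the difference was -0.73 ± 0.20 and for Gstz1 0.89 ± 0.22. For Mthfd2, with changes of -1.41 in hypertonic and -1.46 log2 in isotonic medium, the difference was 0.05 ± 0.56, an error too wide to tell equal from unequal effects.

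**Figure D5:**
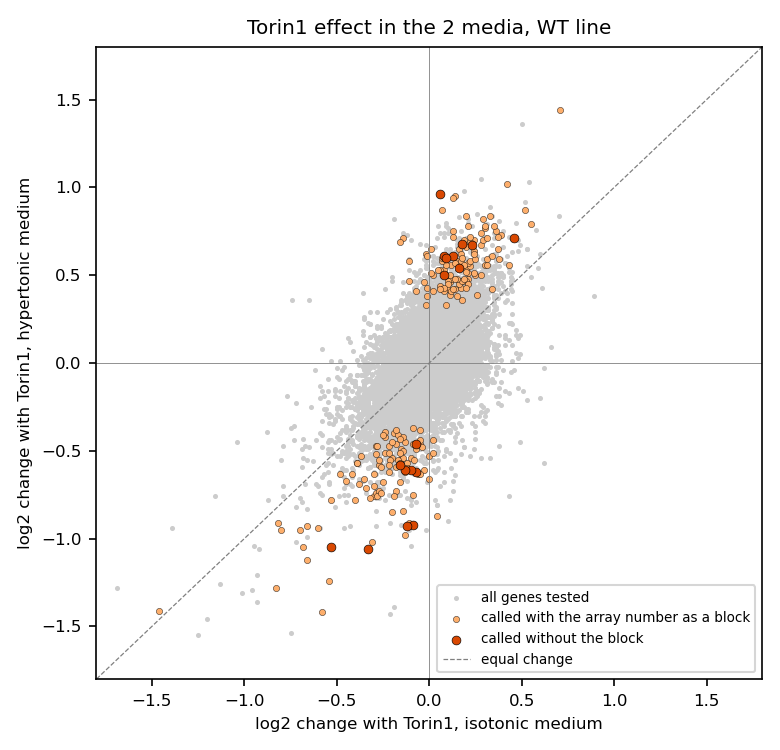
Change with Torin1 (log2) in isotonic medium (horizontal) and in hypertonic medium (vertical) for the 15711 genes tested (grey), the 220 called in hypertonic medium with the array number as a block (light orange) and the 18 called without it (dark orange), with a dashed line of equal change. The called genes lie further from 0 on the vertical axis in 219 of 220 cases, and Mthfd2, at -1.46 and -1.41, is the one that does not.

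The hypertonic medium had its own effect on these genes, measured by the same untreated hypertonic arrays, so the values are set side by side and not tested against each other. Those arrays enter the 2 changes with opposite signs. In genes chosen for their change with Torin1, noise in those arrays alone therefore favours opposite directions, which the shares over all genes do not take into account. Of the 9 genes lower with Torin1, 5 were higher in hypertonic than isotonic medium without Torin1, 1 was lower and 3 did not pass, where 8.24% of all genes passed, 3.94% higher and 4.30% lower. Of the 9 higher with Torin1, 6 were lower in hypertonic medium and 0 higher. Of the 102 genes called lower with the block 27 were higher in hypertonic medium and 1 lower, and of the 118 called higher 1 was higher and 44 lower. Slc1a3 was 1.83 log2 higher in hypertonic medium and -1.06 with Torin1 there, Phospho2 0.83 and -0.61, Gstz1 -1.43 and 0.95, Hspb11 -1.21 and 0.67, and Rras -1.21 and 0.50. P4ha3 fell in both, with -0.65 and -0.93 log2.

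The NFAT5 knock-out arrays enter neither of these changes, but they do enter the pooled spread by which genes were called. Genes with little spread in them pass more easily in every comparison, which the shares over all genes do not take into account. For 1 isotonic knock-out array the genotype label and the title disagree, and the title was followed. In the knock-out line the hypertonic effect passed for 30.1% of genes, 12.9% higher and 17.2% lower. Of the 9 genes higher with Torin1, 6 fell there and 0 rose, and of the 9 lower ones 3 rose and 1 fell. Gstz1 and Rras changed by -1.39 and -1.05 log2 in the knock-out line and by -1.43 and -1.21 in the wild type, whereas Slc1a3 changed by -0.52 there against 1.83 in the wild type. For 148 of the 220 genes (67.3%) the hypertonic effect in the knock-out line had the opposite sign to Torin1's, where 54.8% of all genes did.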

How the data were processed

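The authors deposited RMA signals on the log2 scale for 34760 probe sets of 18 arrays, for which the submitters' processing notes name RMA and R 2.11.1, and no further normalization was applied. A gene was its probe set with the highest mean among those that name 1 gene (21640 probe sets, 19937 genes), and 15711 genes with a highest group mean above the 30th percentile of all values (5.86) were tested. All 18 arrays entered 1 group-means model in limma 3.58.1 (R 4.3.3), which leaves 12 degrees of freedom, with Benjamini-Hochberg adjustment within each contrast; a call is an adjusted p below 0.05. The scripts were tested on simulated data. A second fit added the array number of the titles as a block. In the 2 groups compared, arrays of the same number correlated above 0.1 after removal of group means (lowest 0.263). Of the 18 arrays, 15 were closest to an array of their own number when matched to the arrays of all other groups. In a separate match between the 2 groups compared only, 4 of their 6 arrays were. Over all groups the lowest correlation was 0.0945. What the numbers stand for is not stated. For 1 knock-out isotonic array the genotype label and the title disagree, and the title was followed. Promoters and names are from RefSeq (GRCm38.p6), read with Python 3.11.15.

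Genes were named by a rule: the 12 largest called changes each way without overlap between groups, gene models left out, applied to both fits, then leading members of each list and a fixed set of osmolyte and mTORC1 genes. The members, lists and rule were chosen with earlier results of these data known. Genes named outside the rule (such as 1700084J12Rik, Gpt2, Ctsh, Pdgfra, Cxcl12 and Pink1) were picked after their values were seen. Alternatives changed the filter, probe set choice, normalization, variance prior, array weights, arrays in the fit, block and single arrays.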

Additional observations from a re-analysis of the deposited data

How the results depend on the processing

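The count of 18 genes stayed between 13 and 19 with no filter on dim genes, a stricter one, the mean of probe sets, centred arrays or a trended and robust prior. It was 29 after quantile normalization, 1210 with array weights, and 0 with the 12 wild-type arrays or the 6 compared arrays alone (1776 and 1570 genes at an unadjusted p below 0.05). Leaving out 1 array gave 0 to 118. With the replicate block it was 220. Alternatives chosen after seeing the data gave, with the block, 414 after quantile normalization, 221 after centring, 155 without the number 4 arrays of the 2 groups, and 0, 0 and 846 without all arrays of number 1, 2 or 4. Of the 18 genes, 18 were among those called with the block and 18 among those called with array weights. Of the 77 named genes followed through these alternatives, only Deptor, which was not called, changed sign in some of them. In isotonic medium, leaving out 1 array gave 0 to 25 genes, and the block without isotonic wild-type array 1 gave 295. The difference between media was 0 throughout except for 1 gene with array weights, and the block changed no call in either of these 2 comparisons with all arrays. The cause of these changes was not tested. Arrays give no count depth, and a gene near background has little room to fall.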
